A study of Mus musculus with 2 samples.

Results

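The 39 genes described here encode the Wnt signals of the mouse, their receptors and the proteins that release them. They were taken by name from the tables of both libraries: the 19 Wnt ligands, the 10 Frizzled receptors, 6 co-receptors (Lrp5, Lrp6, Ror1, Ror2, Ryk and Ptk7), the planar polarity proteins Vangl1 and Vangl2, and the secretion genes Porcn and Wls. All 39 were found among the 43346 Ensembl genes of the tables. The rule of choice used no measured value, but earlier results of these data were known when the genes were chosen. The tissue was limb of healthy B6NCrl mouse embryos, taken at embryonic day 13.5 from both sexes pooled, with no genetic change or treatment named. Each library was made from 10 ng of total RNA, size-selected above 200 nt, with synthetic spike-in RNA added. There was 1 group of 2 libraries, numbered as biological replicates 1 and 2, from separate tissue samples that share a single donor entry in the labels. Which of forelimb and hindlimb was dissected is not named in the labels, and whole limb mixes many cell types.

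Wnt proteins are secreted, lipid-modified signals that act over short distances. A Wnt bound to a Frizzled receptor and to Lrp5 or Lrp6 stabilises beta-catenin, which then acts with Tcf/Lef factors in the nucleus, while other Wnts act through Ror, Ryk, Ptk7 and Vangl proteins on cell shape and polarity. In the limb, ectodermal Wnts sustain outgrowth and pattern the dorsal side, mesenchymal Wnt5a drives elongation, and Wnts of the joint interzone mark where cartilage is interrupted.

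Replicate 1 held 31253053 expected counts in genes and replicate 2 held 42301448, so that 3 counts correspond to 0.0960 and 0.0709 CPM, counts scaled to a common library total. Beyond counting error the libraries differed with a coefficient of variation of 5.19% (common dispersion in edgeR). The limb label fits its markers: all 7 limb mesenchyme markers, 9 surface ectoderm markers, 6 chondrocyte markers and 5 joint interzone markers reached 1 TPM, while 0 of 6 neural tube markers did and Sox1 had no counts. TPM is the deposited abundance, scaled by transcript length and to a common total, which lets genes of different length be compared. Of 7 liver markers, 3 also reached 1 TPM in both libraries, namely Afp, Apoa2 and Apoa1. The libraries stood apart in liver transcripts: the 7 liver markers summed to 53.5 TPM in replicate 1 and 7.41 in replicate 2, and their part in the Wnt values was not tested. With a single group there was no comparison of conditions and no test, so levels are given per library, with the mean and SD of both (n = 2), and differences are set beside the spread of genes of like abundance.

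Most of the family was expressed. At 1 TPM or more in both libraries, the level called detected here, 33 of the 39 genes were present: 14 of 19 ligands, 9 of 10 Frizzleds, and every co-receptor, Vangl and secretion gene. By the same rule 34.6% of all genes and 61.0% of protein-coding genes were detected. A mean of at least 10 TPM was reached by 21 members and of at least 100 TPM by 3, namely Wls, Wnt5a and Ptk7. The 6 below the detection level were Wnt1, Wnt2b, Wnt8a, Wnt8b, Wnt9b and Fzd5. In bulk tissue, fewer cells that express a gene and less RNA per cell cannot be told apart, so a low level may be high in a few cells.

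**Figure D1:**
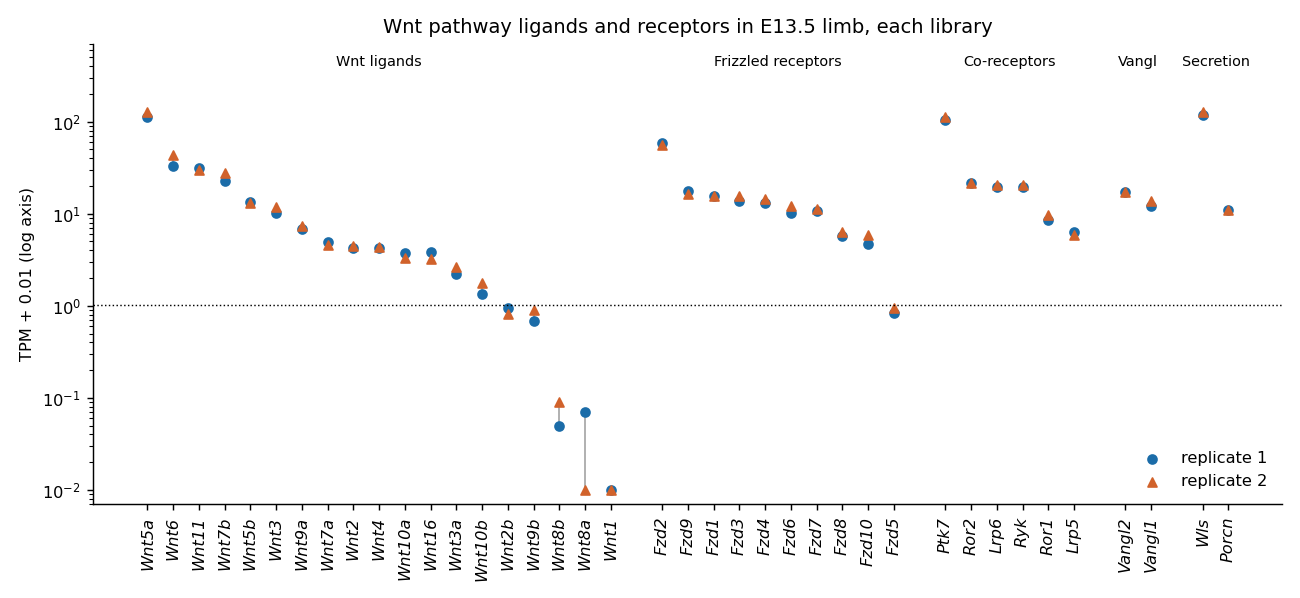
TPM of the 39 genes in each library (circles replicate 1, triangles replicate 2; log axis after adding 0.01, so a value of 0 is drawn at 0.01), by role and in order of mean level. The dotted line marks 1 TPM. Levels run from no counts for Wnt1 to above 100 TPM for Wnt5a, Ptk7 and Wls, and the libraries nearly coincide for most genes.

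Among the ligands, Wnt5a stood far above the rest. Wnt5a (ENSMUSG00000021994.10, chromosome 14, 28504750 to 28527448, mm10), the mesenchymal signal that elongates the limb bud, reached 113 TPM in replicate 1 and 128 in replicate 2 (121 ± 10.5, SD, n = 2). It alone made up 44.4% ± 0.374 of the summed ligand TPM, which was 257 in replicate 1 and 287 in replicate 2. Wnt5a was 3.20-fold above Wnt6, the next ligand, past the spread used here. That spread is the pooled replicate SD of the 500 genes nearest in level, combined for both genes, and a ratio counts as past it when both libraries give 1 sign and the mean log2 ratio exceeds 2 such SDs. The spread covers differences between libraries, and not a bias between genes, such as one of length, that both libraries share. Ratios are of TPM + 0.1, which understates the folds of genes at low levels. The share of Wnt5a was 60.1% on expected counts, where no division by length is made.

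A group of 6 more ligands brought the sum to 90.4% of the ligand TPM. Wnt6 (chromosome 1, 74771892 to 74785322), a signal of the surface ectoderm, stood at 32.9 TPM in replicate 1 and 43.0 in replicate 2. Wnt11, which acts largely outside beta-catenin on cell movement, stood at 31.1 and 29.9 TPM, and Wnt7b, another ectodermal signal, at 22.9 and 27.6 TPM. Wnt6 exceeded Wnt11 by 1.23-fold and Wnt11 exceeded Wnt7b by 1.21-fold, both past the spread, although the libraries differed in size: the log2 ratio of Wnt6 to Wnt11 was 0.08 in replicate 1 and 0.52 in replicate 2, and that of Wnt11 to Wnt7b was 0.44 and 0.12. The order depends on division by length: on expected counts Wnt7b held 9.25% of the ligand total, Wnt6 7.86% and Wnt11 5.70%. Wnt5b, the close relative of Wnt5a that is known from cartilage, was at 13.5 and 13.2 TPM. Wnt3, the ectodermal signal required for the apical ridge, was at 10.3 and 11.8 TPM. Wnt5b lay 1.21-fold above Wnt3, within the spread, and Wnt3 lay 1.55-fold above Wnt9a, past it. Wnt9a, a signal of the joint interzone, had 6.74 and 7.40 TPM.

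The other 7 detected ligands were low and hard to rank. Wnt7a, which specifies dorsal identity from the dorsal ectoderm, had 4.95 TPM in replicate 1 and 4.62 in replicate 2. Wnt4, found in joints and ectoderm, had 4.27 and 4.39 TPM, and Wnt2 had 4.25 and 4.41 TPM. From Wnt9a down through Wnt7a, Wnt4, Wnt2, Wnt10a, Wnt16, Wnt3a, Wnt10b, Wnt2b and Wnt9b, no ligand differed from the next beyond the spread. Wnt10a had 3.73 and 3.28 TPM, and Wnt16, a further joint signal, had 3.82 and 3.18 TPM. Wnt3a, a strong activator of beta-catenin that is known from the tail bud, had 2.18 and 2.61 TPM. Wnt10b, known for favouring bone over fat, was the lowest detected ligand, with 1.35 and 1.78 TPM from 60 and 98 counts. It lay just inside the detection level, and Wnt2b just outside it, at 0.940 and 0.800 TPM from 68 and 77 counts.

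Below that, Wnt9b had 0.680 and 0.890 TPM from 63 and 109 counts, and lay above Wnt8b, past the spread. The size of that ratio is set largely by the 0.1 TPM added, which exceeds the level of Wnt8b. Wnt8b had 3 counts in replicate 1 and 7 in replicate 2, and Wnt8a had 2 counts in replicate 1 and none in replicate 2. Wnt1, the signal of the midbrain and dorsal neural tube, had 0 counts in both libraries, which allows up to 0.0632 TPM in replicate 1 and 0.0476 in replicate 2 at 3 counts per library. Its neighbour on chromosome 15, Wnt10b, lies 11.7 kb away, and its TPM was at least 21.4-fold above these limits. That fold leaves out the uncertainty of Wnt10b itself. The pair was past the spread used here, but not past a spread taken from the edgeR dispersion. The limits for Wnt1 cover counting error only. At these counts the order of Wnt8a, Wnt8b and Wnt1 was not resolved, and the ratio of Wnt8a to Wnt8b took opposite signs in the libraries.

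**Figure D2:**
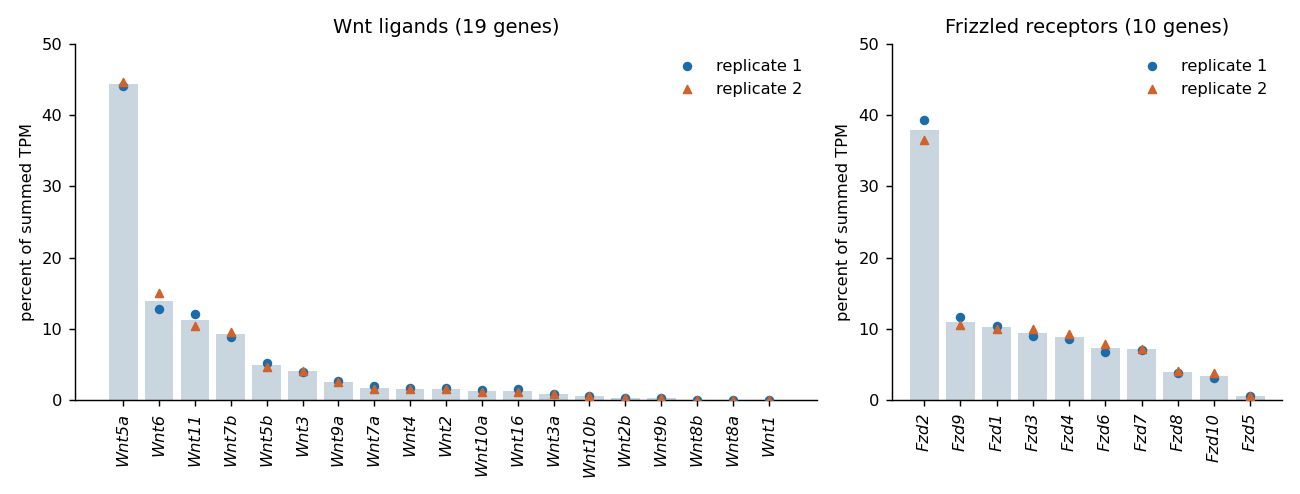
Share of each ligand in the summed TPM of the 19 ligands (left) and of each Frizzled in that of the 10 Frizzleds (right). Bars give the mean of both libraries and points the single libraries; Wnt5a holds 44.4% of the ligand total and Fzd2 37.9% of the Frizzled total.

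All 19 ligands encode a common site at which Porcn attaches the lipid that secretion and receptor binding need, so the site shows what these ligands share at the sequence level. In GENCODE M21 transcripts the reading frame of each of the 19 ligands held 1 match to the encoded pattern around the acylated serine. These 19 sites had 18 distinct DNA sequences that encode 5 distinct peptides. For 7 detected ligands, from Wnt6 down to Wnt10b, the coding-strand sequence of 24 bases is given 5′ to 3′ with the serine codon in capitals, followed by its mm10 position, each within 1 coding exon.
Wnt6: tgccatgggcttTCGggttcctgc, chr1:74784172-74784195, + strand, codon 227
Wnt11: tgccatggggtgTCTggctcctgc, chr7:98850260-98850283, + strand, codon 215
Wnt5b: tgtcacggagtcTCCgggtcctgc, chr6:119433800-119433823, - strand, codon 236
Wnt3: tgccacgggttgTCCggcagctgc, chr11:103812314-103812337, + strand, codon 212
Wnt9a: tgccatggtgtgTCTggctcctgc, chr11:59330926-59330949, + strand, codon 221
Wnt2: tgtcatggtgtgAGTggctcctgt, chr6:18008792-18008815, - strand, codon 212
Wnt10b: tgccatggaacgTCAggcagctgc, chr15:98772878-98772901, - strand, codon 253
Of the 15 ligands whose sites were compared as DNA, 13 used a serine codon of the TCN family and 2, Wnt2 and Wnt2b, used AGT. Between any pair of these 15, from 13 to 24 of the 24 bases were the same. For 28 of the 39 genes, no stretch of 50 bases of the longest transcript occurred in another gene. For the other 11, the genes that shared the most such stretches included no member.

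Relatives within the ligand family were mostly unequal. Wnt5a exceeded Wnt5b by 8.98-fold, Wnt11 by 3.95-fold and Wnt7a by 24.7-fold. Wnt9a exceeded Wnt9b by 8.15-fold, Wnt7b exceeded Wnt7a by 5.17-fold, Wnt2 exceeded Wnt2b by 4.58-fold and Wnt3 exceeded Wnt3a by 4.47-fold. In each of these pairs the ratio was past the spread, and the higher gene was the same in both libraries. Wnt10a stood 2.18-fold above Wnt10b, but did not pass the spread from replicate 2 alone (log2 0.85) and with 1 TPM added in place of 0.1. Among the joint ligands, Wnt9a exceeded Wnt4 by 1.62-fold, past the spread, and Wnt4 over Wnt16 was 1.24-fold, within it.

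Several ligands lie side by side in the genome and stood at unequal levels. Wnt6 and Wnt10a, 6.19 kb apart on chromosome 1 and on the same strand, differed by 10.5-fold. Wnt3 and Wnt9b, 24.3 kb apart on chromosome 11, differed by 12.6-fold, and Wnt9a and Wnt3a, 16.2 kb apart on the same chromosome, by 2.88-fold. All 3 ratios were past the spread.

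**Figure D3:**
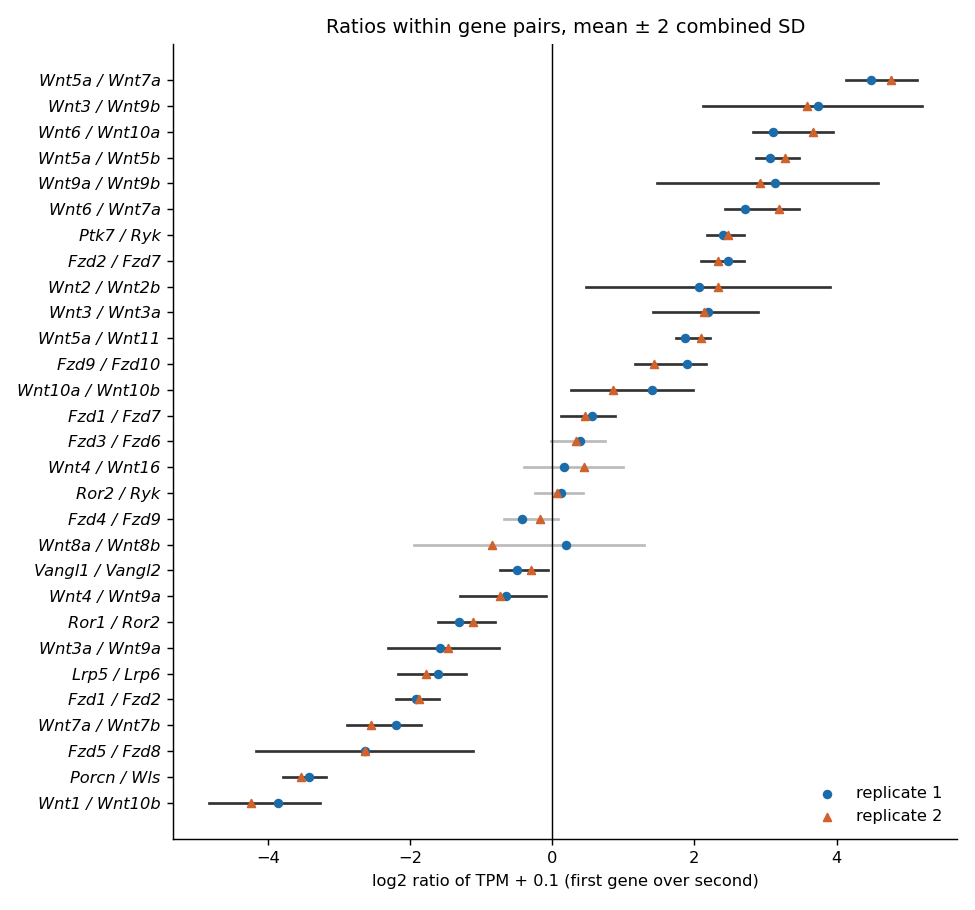
Log2 ratio of TPM + 0.1 within the 29 pairs compared, first gene over second (points, single libraries; bars, mean ± 2 combined SDs of genes of like abundance; grey where the ratio is within the spread). The 5 grey pairs are Wnt8a/Wnt8b, Wnt4/Wnt16, Fzd3/Fzd6, Fzd4/Fzd9 and Ror2/Ryk. The Wnt1/Wnt10b bar rests on 0 counts of Wnt1 and its length depends on the 0.1 added.

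Fzd2 led the Frizzled receptors. Fzd2 (ENSMUSG00000050288.6, chromosome 11, 102604396 to 102608058), which binds Wnt5a among other ligands, stood at 59.4 TPM in replicate 1 and 56.3 in replicate 2 (57.9 ± 2.18, SD, n = 2). It made up 37.9% ± 1.96 of the summed Frizzled TPM, which was 151 and 154, and lay 3.42-fold above Fzd9, past the spread. The share was 37.6% on expected counts, so for Fzd2 length made little difference.

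After Fzd2 came 6 receptors between 10 and 18 TPM in each library. Fzd9 had 17.6 and 16.2 TPM, and Fzd1 had 15.7 and 15.4 TPM. Fzd3, a planar polarity receptor together with Fzd6, had 13.6 and 15.4 TPM. Fzd4, best known from vessel growth, had 13.0 and 14.3 TPM. From Fzd9 down to Fzd7 no receptor in the order differed from the next beyond the spread. Fzd6 had 10.3 and 12.2 TPM and Fzd7, the relative of Fzd1 and Fzd2, had 10.6 and 11.2 TPM.

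Of the close relatives Fzd1, Fzd2 and Fzd7, Fzd2 exceeded Fzd1 by 3.71-fold and Fzd7 by 5.28-fold, and Fzd1 exceeded Fzd7 by 1.42-fold, all past the spread. The polarity receptors Fzd3 and Fzd6 did not differ beyond it (1.29-fold). Fzd9 over Fzd4 was 1.23-fold and within the spread, and on expected counts the sign of this ratio reversed. Fzd8 had 5.69 and 6.39 TPM, below Fzd7 by 1.79-fold and past the spread. Fzd10 had 4.63 and 5.92 TPM, and Fzd9, its relative, exceeded it by 3.17-fold. Fzd5, the lowest receptor, had 0.830 and 0.940 TPM from 104 and 177 counts, and its relative Fzd8 exceeded it by 6.23-fold. Of the 50-base stretches of Fzd5, 16.6% also occurred in Gm38058, a gene annotated on the opposite strand there, which had no counts in replicate 1 and 1.48 in replicate 2.

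Frizzled proteins pass the signal on through Dishevelled, which binds a short motif after the last membrane segment. All 10 reading frames held a match to this motif, and the last match in each frame was taken. The DNA of that match differed in all 10 genes. The sequences of 4 receptors of similar level are given with the codons of the fixed residues in capitals.
Fzd9: AAGACTtttcagactTGG, chr5:135249416-135249433, - strand, codon 533
Fzd1: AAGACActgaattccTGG, chr5:4755706-4755723, - strand, codon 620
Fzd4: AAAACTcttcacacgTGG, chr7:89408241-89408258, + strand, codon 499
Fzd7: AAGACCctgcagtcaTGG, chr1:59484607-59484624, + strand, codon 550
The codon number is that of the first capital codon, counted from the start codon, as for the ligands. Fzd1 and Fzd7 place the motif 23 codons from the end of the frame, Fzd4 39 and Fzd9 60.

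Every co-receptor was detected, and Ptk7 was the most abundant. Ptk7 (chromosome 17, 46564471 to 46629504), a catalytically inactive kinase of planar polarity, stood at 105 TPM in replicate 1 and 114 in replicate 2. Ror2, the kinase receptor of Wnt5a that cartilage growth requires, had 21.5 and 21.4 TPM. Ryk, another inactive kinase that binds Wnts, had 19.7 and 20.4 TPM. Ptk7 lay 5.08-fold above Ror2 and 5.44-fold above Ryk, both past the spread, while Ror2 and Ryk did not differ beyond it (1.07-fold). Ror1 had 8.64 and 9.80 TPM and lay 2.32-fold below Ror2. Lrp6, a co-receptor of the beta-catenin branch, had 19.6 and 20.5 TPM, and the related Lrp5 had 6.36 and 5.89 TPM. Lrp6 exceeded Lrp5 by 3.23-fold, and Ror1 exceeded Lrp5 by 1.5-fold.

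The membrane polarity proteins were of similar level. Vangl2 had 17.2 TPM in replicate 1 and 17.1 in replicate 2, and Vangl1 had 12.2 and 13.9 TPM. Vangl2 was 1.32-fold higher, past the spread, but the ratio fell within it in replicate 2 alone and with posterior mean TPM (log2 -0.30 in both cases). The secretion genes were unequal. Wls, the carrier that takes lipid-modified Wnts to the cell surface, stood at 118 and 129 TPM, beside 113 and 128 for Wnt5a. These levels were not separated: their intervals overlap in both libraries, and Wnt5a has more expected counts in both. Porcn, the acyltransferase, had 11 TPM in both libraries, 11.1-fold below Wls. For Ptk7 and Wls the deposited TPM lies above the upper bound of its own deposited credibility interval in at least 1 library; the deposited posterior means run lower.

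In all, 24 of the 29 pairs compared were past the spread. In the order of levels 6 of 18 neighbouring ligands, 3 of 9 neighbouring Frizzleds and 3 of 5 neighbouring co-receptors were. The share of other gene pairs past the spread was not computed, so whether these counts are particular to Wnt genes was not tested.

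Between libraries the well-counted members differed by less than 1.5-fold. Well-counted genes, those whose counts averaged 100 or more over the libraries, included 33 members. Of these, 0 were over 1.5-fold apart between libraries on TMM-scaled counts. Among all 13185 well-counted genes 0.667% were, 0.326% higher and 0.341% lower in replicate 2, so a count of 0 in 33 is near that background. Of the members with fewer counts, Wnt8a and Wnt8b were past 1.5-fold, at 7 counts or fewer. The log2 ratios of replicate 2 over replicate 1 of the 33 well-counted members ran from -0.39 (Wnt16) to 0.33 (Fzd5 and Fzd10). Their median was 0.09. Higher in replicate 2 by any amount were 22 of 33, against 51.9% of all such genes. The deposited credibility intervals did not overlap for 9 members, each of them higher in replicate 2, namely Wnt3, Wnt5a, Wnt6, Wnt7b, Fzd6, Fzd10, Ror1, Ptk7 and Wls. Among all such genes 12.5% had intervals apart. These intervals cover the estimate within 1 library and not the spread between tissue samples.

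Some tissue markers also differed between the libraries, and ligands known from the ectoderm and the joint are given beside theirs. All 9 surface ectoderm markers were higher in replicate 2, by log2 0.11 to 0.41, and their summed level was 711 TPM in replicate 1 and 809 in replicate 2. Of 7 ligands known from limb ectoderm, Wnt6 was higher by log2 0.28, Wnt7b by 0.25 and Wnt3 by 0.17, Wnt10b by 0.27 at fewer counts, Wnt4 by 0.02, while Wnt7a was at -0.06 and Wnt10a at -0.07. The sign for Wnt4 turned with a correction for length and GC content. Together these 7 held 80.4 TPM in replicate 1 and 96.5 in replicate 2, or 32.4% of the ligand TPM. All 4 well-counted joint interzone markers were lower in replicate 2, by -0.31 to -0.01, with the fifth, Prg4, at 0.07 from fewer counts. The 5 markers summed to 363 TPM in replicate 1 and 334 in replicate 2. The joint ligand Wnt16 was at -0.39 with 136 and 140 counts, Wnt9a at 0.11 and Wnt4 at 0.02. Together these 3 held 14.8 TPM in replicate 1 and 15 in replicate 2, with Wnt4 counted in both groups of ligands. Among other markers, 4 of 6 chondrocyte genes were higher in replicate 2, Comp (0.62, over 1.5-fold) and Acan (0.32) the most. Sox9 (-0.13) and Col9a1 (-0.04) were lower. Higher in replicate 2 were also 4 of 5 muscle markers, beside 3 of 7 limb mesenchyme markers and 2 of 5 endothelium markers. Among all well-counted genes 51.9% were higher in replicate 2, and the SD of their log2 ratios was 0.24. Comp was the only marker of these lists past 1.5-fold. Whether the makeup of the tissue samples had a part in these values was not tested.

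**Figure D4:**
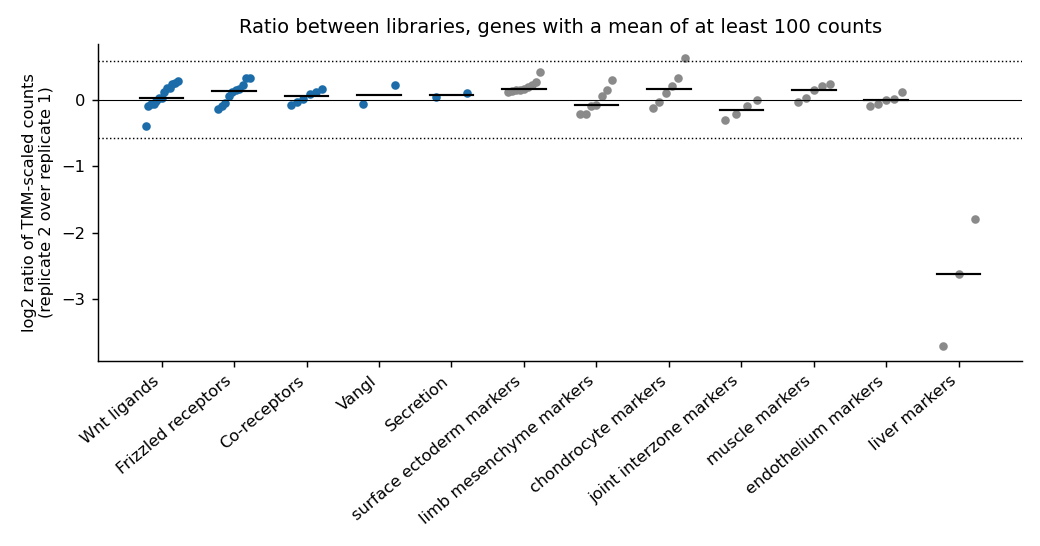
Log2 ratio of TMM-scaled counts, replicate 2 over replicate 1, for well-counted members (blue, by role) and cell type markers (grey); lines give medians and dotted lines 1.5-fold. Members lie between -0.39 and 0.33, while the 3 liver markers shown lie between -3.71 and -1.79.

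The tables also divide each gene among its transcripts. Of the 33 detected members 13 have a single transcript in the tables and 20 have more. The leading transcript was the same in both libraries for 19 of these 20, where 91.5% of 10047 such genes kept theirs. Wnt2 was the exception, with 52.2% of its TPM in Wnt2-201 in replicate 1 and 48.9% in replicate 2, the rest being in a transcript that GENCODE M21 does not hold. Division among overlapping transcripts is a model estimate and less sure than the level of the gene.

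The estimates divided Wnt5a between transcripts with different starts. Wnt5a-201 held 40.4% of the gene's TPM in replicate 1 and 40.5% in replicate 2, and Wnt5a-202, in a cluster of starts that begins 6.64 kb downstream, held 43.3% and 44.8%. Both encode protein, and both shares were stable between libraries. Wnt5a-201 is 7009 nt long and Wnt5a-202 3650 nt, so they differ in more than the start. Use of the starts themselves was not measured. An antisense gene, Gm2670, overlaps 358 nt of Wnt5a exons and had 338 and 471 counts, against 10426 and 15820 for Wnt5a. No source used here says whether counting used strand, so reads of the overlap may have gone to either. Of the other members, Wnt7b, Wnt11, Fzd5, Fzd6 and Vangl1 overlap an annotated gene on the opposite strand, which had at most 15 counts.

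For Wnt5b the estimated shares of the starts differed between libraries, within the deposited uncertainty. Wnt5b-203 and Wnt5b-204, which begin at the first start, held 58.4% in replicate 1 and 78.8% in replicate 2. Wnt5b-202, whose start lies 77.1 kb downstream, held 41.6% and 21.2%. The credibility intervals overlap for both Wnt5b-202 (2.04 to 6.82 and 0.458 to 4.27 TPM) and Wnt5b-203 (1.89 to 8.63 and 5.22 to 11.2 TPM). All of these encode protein, and the level of the gene was 13.3 ± 0.170 TPM (SD, n = 2).

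In these estimates Wnt11 was divided among 3 transcripts and a pair of starts. The larger part of its TPM was not in transcripts annotated as protein-coding. Wnt11-202, annotated as a target of nonsense-mediated decay, the pathway that removes messages with an early stop, held 45.0% in replicate 1 and 51.2% in replicate 2. Wnt11-204, with the same annotation, held 20.3% and 11.7%. The coding Wnt11-205 held 32.7% and 31.2%, and coding transcripts together 34.7% and 37.1%. The total of 30.5 TPM for Wnt11 therefore includes 35.9% ± 1.70 in coding transcripts. By start, transcripts that begin at the first start held 47.0% and 57.1%, and those that begin 3.73 kb downstream held 53.0% and 42.9%.

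Transcripts of both Wnt11 starts were assigned reads by the model, while use of the starts themselves was not measured. The 250 bases before each start are given, from RefSeq on GRCm38.p6 (the assembly of mm10), + strand, 5′ to 3′. A search was made on both strands for the TATA box TATAAA and for CTTTGA, the core that Tcf/Lef factors recognise, and matches are in capitals. No annotated exon overlaps either window.
Wnt11 first start, chr7:98834862-98835111: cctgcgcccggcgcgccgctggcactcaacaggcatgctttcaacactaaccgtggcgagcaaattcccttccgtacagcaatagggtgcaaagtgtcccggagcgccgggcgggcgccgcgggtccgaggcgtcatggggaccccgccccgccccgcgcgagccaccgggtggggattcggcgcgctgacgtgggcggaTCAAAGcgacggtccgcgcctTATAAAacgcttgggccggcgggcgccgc
Wnt11 second start, chr7:98838595-98838844: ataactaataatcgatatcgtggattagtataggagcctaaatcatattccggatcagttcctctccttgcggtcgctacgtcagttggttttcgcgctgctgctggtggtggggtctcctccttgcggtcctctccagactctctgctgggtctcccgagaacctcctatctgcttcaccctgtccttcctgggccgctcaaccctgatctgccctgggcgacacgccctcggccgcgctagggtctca
The first window held 37 CG dinucleotides, TATAAA beginning 29 bases before the start and, on the opposite strand, CTTTGA at 50 bases. The second held 16 CG dinucleotides and neither motif. Among 32851 windows of the same length before RefSeq starts, 12.4% held TATAAA and 13.8% held CTTTGA. Of the 30 windows of 27 members, 3 held TATAAA and 4 held CTTTGA. The median number of CG dinucleotides was 22.5 in the windows of members and 6 in all windows. A match is a run of letters and not a measured binding site. Entries for Wnt5a, Wnt7b, Wnt8a, Wnt10a, Fzd2, Fzd3, Fzd6, Fzd8, Lrp5, Lrp6, Vangl1 and Porcn were not used here.

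Several other members were divided as well. Porcn-203 led with 64.0% in replicate 1 and 52.1% in replicate 2, beside the retained-intron transcript Porcn-206 with 16.7% and 16.4% and the decay-annotated Porcn-205 with 10.2% and 16%. Ryk-201 held 59.8% and 46.5% and Ryk-203 24.3% and 30.6%, both coding. Ror2-201 held 79.5% and 77.2%, and Ror2-202, which begins 0.575 kb downstream, the remaining 20.5% and 22.8%. The credibility intervals of each of these leading transcripts overlap between libraries. Lrp5-201 held 64.7% and 70.6% and the shorter coding Lrp5-202 33.0% and 26.5%. Fzd6-202 held 71.8% and 82.2%. In Wnt6 the retained-intron transcript Wnt6-202 had 5.01% in replicate 1 and 14.6% in replicate 2, with overlapping credibility intervals (0.169 to 4.48 and 3.56 to 9.17 TPM). The coding Wnt6-201 had 31.2 and 36.7 TPM.

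**Figure D5:**
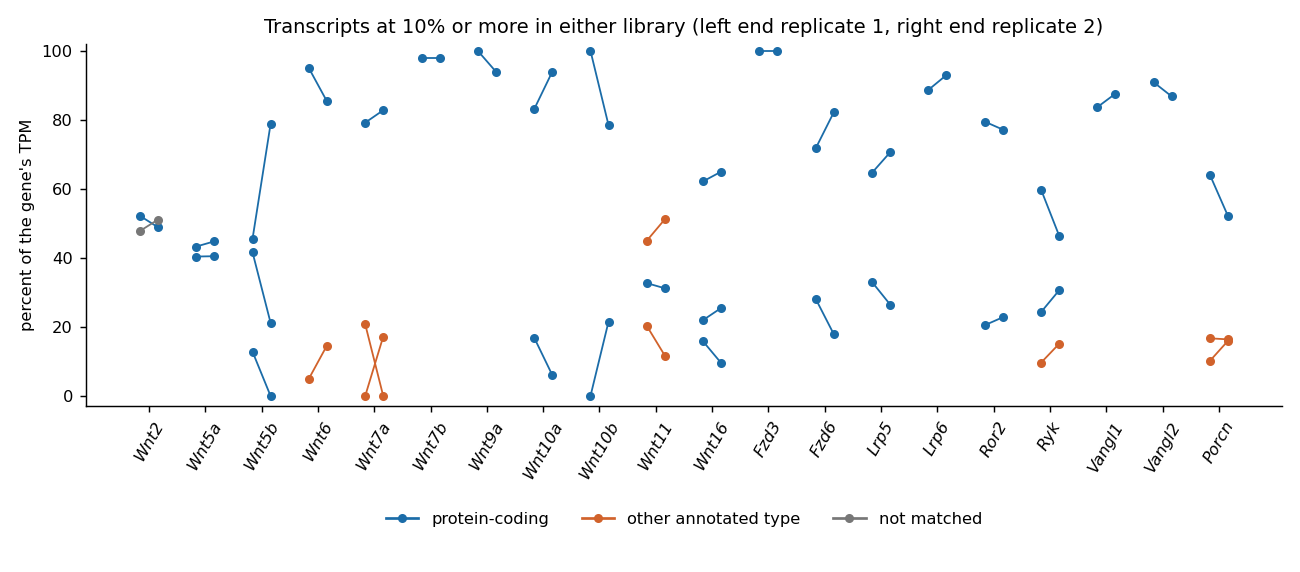
Share of each gene's TPM in every transcript that reached 10% in either library, for the 20 detected members with more than 1 transcript; the left end of a line is replicate 1 and the right end replicate 2. Blue marks protein-coding, orange other annotated types (decay targets, retained introns, processed transcripts) and grey the Wnt2 transcript not found in GENCODE M21. Wnt5a and Ror2 give nearly level lines, and Wnt5b the steepest among members above 10 TPM.

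The rest of the pathway was present too. Of 14 secreted antagonists 10 were detected, led by Sfrp2 (386 TPM in replicate 1, 349 in replicate 2) and Wif1 (76.5 and 99.9), both of which bind Wnts, with Dkk4 (0.200 and 0.420) and Sost (0.320 and 0.310) about equally low. The summed TPM of this list was 659 and 657, above that of the ligands in both libraries. R-spondins and their Lgr receptors act by blocking Znrf3 and Rnf43, the ligases that remove Frizzleds from the cell surface. Of these 9 genes, ligases included, 8 were detected, led by the ligand Rspo3 (23.8 and 25.9) and the receptor Lgr4 (19.3 and 17.6), with Rspo4 lowest (0.610 and 0.840).

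All 20 cytoplasmic and nuclear genes were detected, led by beta-catenin, Ctnnb1 (449.7 and 468), and the kinase Csnk1a1 (226 and 231), with Dvl1 lowest (4.76 and 3.57). Genes known as targets of beta-catenin were detected in 13 of 14 cases, led by Ccnd1 (137 and 136) and Myc (49.8 and 54.7), both of which also answer to other signals, with Cdx1 lowest (0.200 and 0.130). Axin2, the target used most often as a readout, had 15 and 16.4 TPM. Of 19 planar polarity partners 17 were detected, led by Prickle1 (47.2 and 47.6) and Dvl2 (45.0 and 49.6), with Celsr3 lowest (0.0800 and 0.110). Across the 5 lists, 0 well-counted genes were over 1.5-fold apart between libraries, beside the 0.667% of all genes. Each list held from 7 to 20 well-counted genes, some of them in more than 1 list, so 0 is near that background.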

How the data were processed

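Total RNA-seq of E13.5 mouse limb gave 1 group of 2 libraries (biological replicates 1 and 2, per the labels). The assembly was mm10 and the annotation GENCODE M4, per the deposited text files; aligner, quantifier, versions and strand use: not given in the sources used here. The deposited expected counts are model estimates per gene and transcript. The deposited TPM and FPKM values scale them by effective length, which equals length minus 99 nt, and the deposited percent column (IsoPct) is a transcript's share of its gene, per the file headers. Posterior means and credibility bounds of TPM were deposited by the authors as well.

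GENCODE M21, a later release for that assembly, gave names, positions and transcript types. Counts, rounded for edgeR 4.0.16 (R 4.3.3), gave TMM scaling and dispersion for genes that reached 10 counts in both libraries, without the spike-ins, which took 2.11% and 2.07% of counts. DESeq2 1.42.0 gave alternative size factors. Rows that name no gene or spike-in held 0.000226% and 0.000148% of counts and were left out. Log2 ratios between libraries had 0.5 added to scaled counts, and pair ratios 0.1 TPM. Steps in Python 3.11.15 used numpy 2.4.6 and pandas 2.3.3. The call of 1.5-fold, the pair rule and the dispersion were tested on simulated data. All 39 members were to be named, with the 2 highest genes and the lowest of each pathway list. Axin2, Sost, Comp, Acan, Sox9 and Col9a1 were added after their values were seen, as were the groups of ectodermal and joint ligands. Members, lists and pairs were chosen with earlier results of these data known. With 1 group no p-value was computed, and the spread between the libraries may be partly technical. Sequences were read from GENCODE M21 transcripts and from RefSeq promoters.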

Additional observations from a re-analysis of the deposited data

How the results depend on the processing

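Detection held between 32 and 36 of 39 members when the level was 0.5 or 2 TPM, the unit FPKM or the posterior mean TPM, or either library was used alone. Without a filter on low counts, 2 members (Wnt8a and Wnt8b) instead of 0 were over 1.5-fold apart, both at 7 counts or fewer. DESeq2 size factors and the spike-in total shifted the median log2 ratio by 0.00 and 0.03; the sign of Wnt5b turned under the spike-in total, and those of Wnt4, Fzd7 and Ryk under the correction for length and GC content. The share of Wnt5a in the ligands was 60.1% on expected counts and from 44.1% to 44.7% with either library left out or posterior means.

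Between 22 and 28 of the 29 pairs were past the spread under the alternatives, 22 without replicate 1 and 26 without replicate 2. On TMM-scaled expected counts, Fzd4 over Fzd9 reversed to log2 0.40 from -0.30, and Wnt4 over Wnt16 (1.62), Ror2 over Ryk (0.70) and Fzd3 over Fzd6 (0.39) passed it; these counts are not divided by length. Without replicate 2, Wnt8a over Wnt8b was 0.19 in place of -0.33, on 2 and 3 counts, and without replicate 1 it was -0.85. The same leading transcript was found in 20 of 20 members with posterior means and in 15 of 15 at 5 TPM or more. No paired analysis was possible because there is a single group. Depth limits Wnt1, Wnt8a and Wnt8b, whose order was not detectable.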
